A study of Mus musculus with 6 samples.

Results

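The AP-1 and ATF transcription factors of this report were 10 genes taken by name from the deposited count table of 54532 genes: Fos, Fosb, Fosl1, Fosl2, Jun, Junb, Jund, Atf3, Batf and Maff. RNA-seq was performed on the N9 line, an immortalized microglial cell line from mouse brain, which is 1 cell line and stands for microglia only as such. In 3 LPS samples the cells had received lipopolysaccharide, a bacterial cell wall product that activates Toll-like receptor 4, at 1 µg/ml for 6 h, and the 3 control samples were untreated cells of the same line. The labels name no other treatment and no genetic change in either group. The labels number the samples as replicates without naming separate cultures, so that p-values measure only the spread between these samples, which may be technical.

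AP-1 is a family of dimeric transcription factors that bind DNA through a basic region and pair through a leucine zipper, together called the bZIP domain. FOS proteins pair with JUN proteins, whereas JUN proteins can also pair with each other, with ATF proteins and with BATF. Stimulation of Toll-like receptor 4 by LPS activates MAP kinases in microglia and macrophages, which act on AP-1 proteins by phosphorylation and on AP-1 genes by transcription. Fos, Jun and some of their relatives are immediate-early genes, which are known for brief peaks soon after a stimulus. The present data hold a single time of exposure.

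Total counts were between 16363767 and 17956772 per library, and each pair of libraries of a group differed beyond sampling noise (chi-square per gene from 3.47 to 7.35). All 13 microglia and macrophage markers were above 3 counts in at least 1 library, with a summed level of 2218 to 2284 CPM (the unit CPM is counts scaled to a common library size, after TMM normalization) in control and 2399 to 2460 CPM in LPS libraries. Of the defining markers, Aif1 reached at most 9 counts and P2ry12 at most 6 in any library. Some libraries stood apart. The sum of 10 hepatocyte markers, all 10 of them above 3 counts in some library, was 15.2 CPM in control replicate 2 and 25.7 CPM in control replicate 3, against 0.525 CPM in control replicate 1 and 0.19 to 0.731 CPM in LPS libraries. The sum of 8 intestinal epithelium markers, 6 of them above 3 counts, was 12.9 CPM in control replicate 2 and 8.40 CPM in LPS replicate 3, against 0.161 to 0.759 CPM in the other libraries. The 5 neuron markers summed to 4.73 to 5.56 CPM in control and 11.8 to 15.02 CPM in LPS libraries. Most of this was Tubb3 (58 to 81 and 179 to 231 counts), called higher with a log2 fold change of 1.67. None of the T and B cell markers exceeded 3 counts. The 5 astrocyte markers summed to 139.3 to 142.2 CPM in control and 118.9 to 128 CPM in LPS libraries, nearly all from Aldoc and Aldh1l1, both called lower, with Gfap at most 10, Slc1a3 at most 3 and Aqp4 at most 2 counts. The 5 oligodendrocyte markers summed to 33.5 to 39.99 and 28.3 to 29.5 CPM, nearly all from Mbp (616 to 672 and 457 to 467 counts, called lower), with Olig2 at 0. The 5 endothelium markers summed to 40.8 to 45.7 and 46.5 to 53.2 CPM, mostly Vwf (692 to 835 and 711 to 844 counts, not past the test), with Kdr called higher at 2 to 8 and 13 to 21 counts and Cldn5 at 0. The part of these transcripts in the results was not tested. Values without those libraries are given beside the named genes whose call they changed. For the counts of the lists that moved, they are given in the section on how the results depend on the processing. In bulk samples, fewer cells that express a gene and less RNA per cell cannot be told apart.

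LPS was set against control with edgeR's quasi-likelihood test, with Benjamini-Hochberg adjustment over all 12296 genes that passed a filter on low counts. Genes with an adjusted p under 0.05 are called higher or lower, and those that also had an absolute log2 fold change over 1.5 are called DEG, the threshold used in the study. Of the 10 members, 9 passed the filter and Batf did not. The test called 8 of these 9 higher in LPS-stimulated cells: Junb, Fosl1, Atf3, Maff, Jund, Fos, Jun and Fosl2, in order of change. None was called lower by edgeR with TMM factors or by DESeq2, and 1, Fosb, was below control at an unadjusted p under 0.05. Among all tested genes, 2294 (18.7%) were called higher and 1927 (15.7%) lower. The split of all genes depends on scaling. With library totals alone in place of TMM factors, the median log2 fold change of all genes moved from 0.00 to -0.09. In that setting 1520 genes were called higher and 3342 lower. Of the members, the same count of 8 was called higher, and 1, Fosb, was called lower.

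No member was a DEG by edgeR, by DESeq2 or by the unadjusted p, while 326 genes (2.65%) were DEG. The median absolute log2 fold change was 0.59 over the 8 members that passed the test and 0.37 over all 4221 genes that passed it. The LPS libraries all lay above the controls for these 8 members, as for 23.7% of all tested genes, and all below them for Fosb, as for 21.5%. Without control replicates 2 and 3, the count of members called higher was 7, and without control replicate 2 and LPS replicate 3 it was 6. The genes that lost the call were Maff in both cases and Fos in the second.

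**Figure D1:**
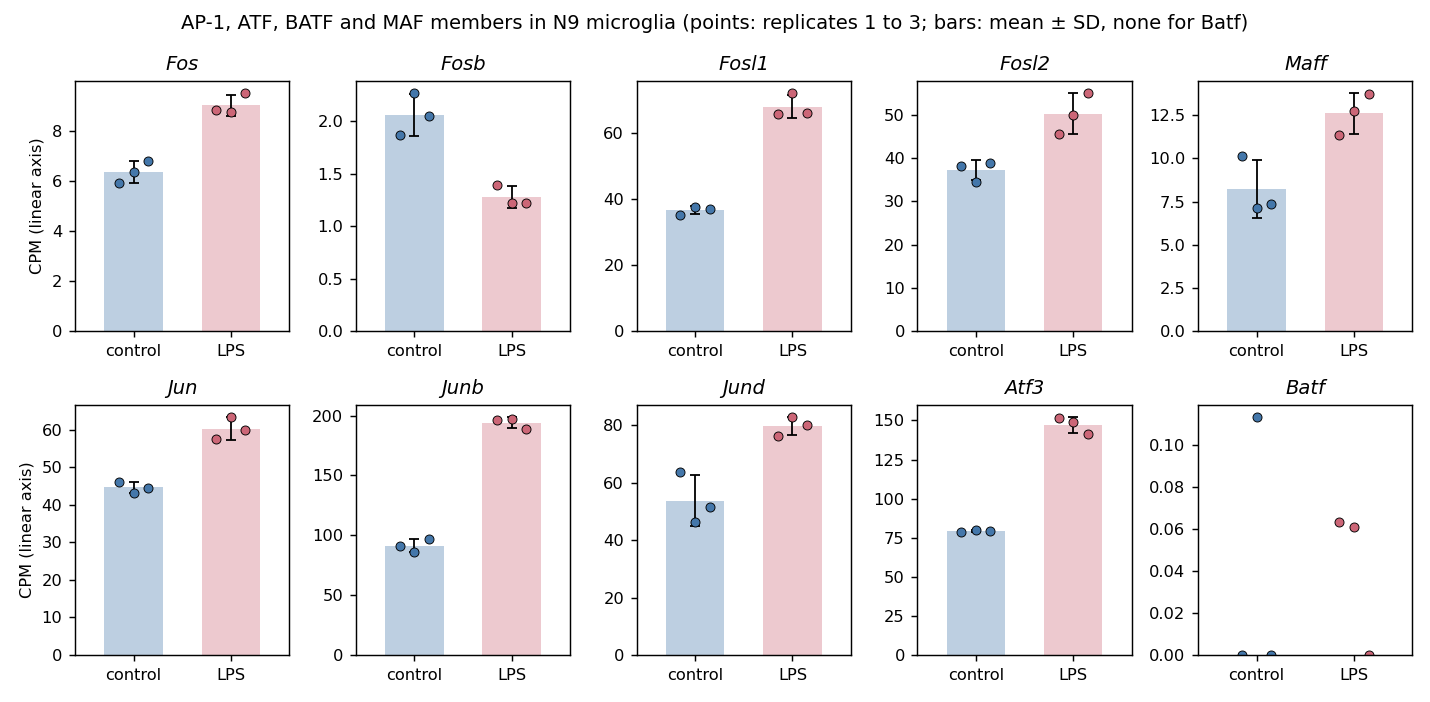
Level of each of the 10 members in CPM on a linear axis that starts at 0, by group. Points are replicates 1 to 3 from left to right, bars the mean and whiskers the SD of 3 libraries, and Batf is shown by points alone because its libraries held 0 to 2 counts. Points of the 2 groups do not overlap for the 9 tested members, with LPS higher for 8 and lower for Fosb.

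The control regions of the genes are shown first, because members of the family are known to act on each other's promoters, Jun and Atf3 on their own among them. The RefSeq table of mouse promoters (GRCm38.p6, the assembly that mm10 is built on) held 9 of the 10 members in 11 windows, and Fosl1 was missing. Starts are those of the RefSeq table and are not always that of the counted gene: the Jund window ends 1210 bases before the deposited start of Jund, and those of Fosl2, Atf3 and the later starts of Maff lie inside the deposited gene span. The 250 bases before each RefSeq start were searched on both strands for TGANTCA (the AP-1 site), TGACNTCA (the cyclic AMP response element, CRE, and the related site of the Jun promoter), TGACG (the CRE core, which overlaps some matches of the longer site), the interferon-stimulated response element, the NF-kappa B site and the CArG box bound by SRF. Windows of 6 members, chosen for the reasons that follow, are printed 5′ to 3′ on the gene's strand. Among the members with a window, Junb and Atf3 had the largest changes. Fos and Jun are the prototypes of each family. Fosb was the tested member whose LPS libraries lay below control, and Maff was the member with a full CRE palindrome. Capitals mark the matches: the NF-kappa B site (read on the opposite strand) then the CRE core on 2 places in Fos, the NF-kappa B site then the CRE core in Fosb, the CRE-related site in Jun, the CRE core in Junb, the CRE core read on the opposite strand in Atf3, and the CRE palindrome in Maff. The windows are chr12:85473640-85473889 (plus strand) for Fos, chr7:19310046-19310295 (minus strand) for Fosb, chr4:95052223-95052472 (minus strand) for Jun, chr8:84978749-84978998 (minus strand) for Junb, chr1:191183334-191183583 (minus strand) for Atf3 and chr15:79347270-79347519 (plus strand) for the second of 3 starts of Maff.
Fos: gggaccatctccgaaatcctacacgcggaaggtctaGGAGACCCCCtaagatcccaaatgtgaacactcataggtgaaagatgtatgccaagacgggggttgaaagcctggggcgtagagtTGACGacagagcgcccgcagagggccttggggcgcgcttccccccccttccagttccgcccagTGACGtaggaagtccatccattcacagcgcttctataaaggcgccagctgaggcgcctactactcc
Fosb: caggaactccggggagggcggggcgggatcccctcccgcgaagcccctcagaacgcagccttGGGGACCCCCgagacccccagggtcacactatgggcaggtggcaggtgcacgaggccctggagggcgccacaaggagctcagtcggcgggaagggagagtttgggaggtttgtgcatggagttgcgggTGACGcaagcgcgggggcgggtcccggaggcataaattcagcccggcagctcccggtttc
Jun: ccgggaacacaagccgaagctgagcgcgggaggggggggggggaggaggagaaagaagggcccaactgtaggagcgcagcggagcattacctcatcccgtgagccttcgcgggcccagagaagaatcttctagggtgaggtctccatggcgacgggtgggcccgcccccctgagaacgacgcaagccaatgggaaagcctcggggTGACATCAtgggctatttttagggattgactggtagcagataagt
Junb: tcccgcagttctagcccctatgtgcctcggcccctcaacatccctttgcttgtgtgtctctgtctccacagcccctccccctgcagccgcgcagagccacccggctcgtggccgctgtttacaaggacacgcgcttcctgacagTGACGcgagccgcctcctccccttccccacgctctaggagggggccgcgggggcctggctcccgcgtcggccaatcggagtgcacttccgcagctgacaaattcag
Atf3: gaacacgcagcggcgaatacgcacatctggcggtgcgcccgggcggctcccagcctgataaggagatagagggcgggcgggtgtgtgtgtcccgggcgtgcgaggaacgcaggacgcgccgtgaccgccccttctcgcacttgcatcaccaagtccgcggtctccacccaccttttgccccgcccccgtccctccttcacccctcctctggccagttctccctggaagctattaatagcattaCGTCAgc
Maff: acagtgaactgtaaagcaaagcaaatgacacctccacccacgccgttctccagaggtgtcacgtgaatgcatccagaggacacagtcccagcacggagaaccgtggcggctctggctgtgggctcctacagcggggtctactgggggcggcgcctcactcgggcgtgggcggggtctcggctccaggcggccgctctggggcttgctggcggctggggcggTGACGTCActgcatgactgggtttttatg

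The CRE core began 66 and 129 bases before the start in Fos, 60 in Fosb, 106 in Junb, 7 in Atf3, 98 in Batf, 29 and 26 in the second Maff window (both inside its palindrome) and 122 in the last of the Maff windows, and 17.8% of 32851 promoter windows of that length held it. The longer CRE-related site was found 45 bases before the start of Jun, 29 before the second start of Maff and 45 before the last of its starts, and 7.49% of windows held it. NF-kappa B sites were found before the start at 214 bases in Fos, 188 in Fosb and 182 and 181 (overlapping) in Fosl2. The last of the Maff windows held a match at 70 bases, and 7.25% of all windows held the site. These windows had a GC content of 58.4%, 68.8%, 64.4% and 60.4%, against a median of 52.4% over all windows. Those of Jun (61.2%), Junb (66.4%) and Atf3 (65.2%) held no such match. The shares of all windows were not adjusted for GC content, and Maff had 3 windows in which to match. Fosl2 held a match to the interferon-stimulated response element at 221 bases, against 2.98% of windows. The AP-1 site itself, in 6.75% of windows, and the CArG box, in 1.47%, had no match in any window of a member. Bases farther upstream than 250 were not searched, so that sites of either kind there would have been missed, for Fos as for the others. The Jund window, which is not next to the start of the counted gene, and the first of Maff held no match to the 6 motifs. Fos, which was called higher, and Fosb, which was not called, held the same 2 kinds of match in the same order. These are matches of letters in 1 stretch of sequence, and no binding was measured.

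The FOS family supplies the partners that need a JUN protein to bind DNA. Fosl1, which encodes FRA-1, a FOS protein without the strong activation domain of c-FOS, had the largest change of this family. Its levels were 35.4, 37.6 and 37.1 CPM in control and 65.9, 72.3 and 66.3 CPM in LPS libraries, in the order of replicates 1 to 3 as for all values given by library. All LPS libraries were far above all controls. The log2 fold change was 0.89 (SE 0.06, 95% confidence interval 0.77 to 1.02, edgeR adjusted p = 1.91e-08), or 1.86-fold, from 36.7 ± 1.16 to 68.1 ± 3.58 CPM (SD, n = 3). Fosl1 (ENSMUSG00000024912) lies at chr19:5447703-5455945 on the plus strand as the table gives it, the only member whose coordinates differ from GENCODE release M21.

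Fosl2 encodes FRA-2, its close relative. Counts were 653, 608 and 721 in control and 719, 819 and 903 in LPS libraries, in which LPS replicate 1 came nearest to the controls. The level went from 37.1 ± 2.33 to 50.2 ± 4.71 CPM, a log2 fold change of 0.43 (SE 0.08, edgeR adjusted p = 4.19e-04). Fosl2 (ENSMUSG00000029135, chr5:32135801-32157842, plus strand) had the longest deposited gene length of the members, 9680 bases, against 1707 for Fosl1.

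Fos, the prototype of the family, was low. Its counts were 101, 112 and 126 in control and 139, 143 and 156 in LPS libraries. The groups did not overlap, and the highest control library was close to the lowest LPS library. The level was 6.34 ± 0.441 CPM in control and 9.01 ± 0.426 CPM in LPS, 41.9% higher (log2 fold change 0.51, SE 0.13, edgeR adjusted p = 0.00708). Without control replicate 2 and LPS replicate 3 it was 0.47 with an edgeR adjusted p = 0.059. Fos (ENSMUSG00000021250) lies at chr12:85473890-85477273 on the plus strand, and its principal transcript has 4 exons.

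Fosb, whose short isoform ΔFosB is known as a stable product in neurons, was the only tested member below control. It had 32, 40 and 38 counts in control and 22, 20 and 20 in LPS libraries. All LPS libraries were below all controls, at 172 counts in total. The level was 2.06 ± 0.2 CPM in control and 1.28 ± 0.101 CPM in LPS, a log2 fold change of -0.69 (SE 0.27, 95% confidence interval -1.27 to -0.11, edgeR adjusted p = 0.0653), which did not pass the test. With library totals alone it passed (edgeR adjusted p = 0.0324). Over all alternatives the log2 fold change was from -0.79 to -0.55 and the adjusted p from 0.0324 to 0.457. Fosb (ENSMUSG00000003545) lies at chr7:19302696-19310051 on the minus strand.

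JUN proteins can bind DNA without a FOS partner. Junb, which encodes a JUN protein that activates or restrains transcription depending on its partner, had the largest change and the highest level of all members. Counts were 1553, 1520 and 1800 in control and 3104, 3237 and 3095 in LPS libraries. The lowest LPS library held far more than the highest control, and the 3 LPS libraries lay close together. The level rose from 91.2 ± 5.36 to 194 ± 4.99 CPM, 2.13-fold (log2 fold change 1.09, SE 0.05, 95% confidence interval 0.98 to 1.2, edgeR adjusted p = 2.78e-10). Junb (ENSMUSG00000052837) spans chr8:84974484-84978718 on the minus strand, and its principal transcript in GENCODE M21 has 1 exon. The span overlaps Prdx2, on the opposite strand, by 351 bases, and the use of strand in counting is not given in the sources used here. Prdx2, an antioxidant enzyme gene, had a log2 fold change of 0.04 (SE 0.05, edgeR adjusted p = 0.558).

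Jun encodes c-JUN, the substrate that gave the JNK kinases their name. Counts were 791, 759 and 829 in control and 907, 1041 and 984 in LPS libraries, without overlap. Its level rose from 44.6 ± 1.58 to 60.3 ± 3.02 CPM, 35.2% higher (log2 fold change 0.44, SE 0.06, edgeR adjusted p = 3.91e-05). Jun (ENSMUSG00000052684, chr4:95049034-95052222, minus strand) overlaps the antisense gene Junos by 689 bases, and Junos held 1 to 8 counts per library.

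Jund encodes the JUN protein that is usually present in resting cells. It varied most between control libraries among the JUN genes, at 63.8, 46.2 and 51.5 CPM, and the LPS libraries held 76.3, 82.8 and 80.3 CPM. Control replicate 1 was the highest control and still below every LPS library. The log2 fold change was 0.57 (SE 0.09, edgeR adjusted p = 1.40e-04), from 53.8 ± 9.03 to 79.8 ± 3.28 CPM. Without control replicates 2 and 3, in which case control replicate 1 alone is assumed to vary like the LPS libraries, it was 0.32 (edgeR adjusted p = 0.00699). Jund (ENSMUSG00000071076, chr8:70698949-70700616, plus strand) contains the antisense gene Gm11175, which was at 0 in every library.

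Levels of different genes were compared as CPM per kb of deposited gene length. Junb was highest in both groups, followed by Atf3, Jund, Fosl1, Jun, Fosl2, Maff, Fos, Fosb and Batf, the same order in control and LPS-stimulated cells. In control libraries the ranges of Atf3 and Jund overlapped (36.6 to 37.2 and 27.7 to 38.3 CPM per kb), as did those of Fosl2 and Maff and of Maff and Fos. In LPS libraries those of Fosl2 and Maff overlapped (4.71 to 5.68 and 4.37 to 5.28 CPM per kb), and all other neighbours were apart.

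The 4 FOS genes summed to 28.4 ± 0.774 CPM per kb in control and 49.1 ± 2.10 CPM per kb in LPS libraries, and the 3 JUN genes to 85.9 ± 6.81 and 151 ± 3.65 CPM per kb. Those sums were 1.73 and 1.76 times higher with LPS. The JUN sum over the FOS sum was 3.04 ± 0.305 in control and 3.08 ± 0.0719 in LPS libraries, with overlapping ranges. Each family was led by 1 gene. Fosl1 made up 75.5%, 76.9% and 75.1% of the FOS sum in control and 81.6%, 82.4% and 79.7% in LPS libraries. The shares of the other FOS genes were lower in LPS libraries, from a mean of 13.5% to 10.6% for Fosl2, from 9.50% to 7.81% for Fos and from 1.16% to 0.418% for Fosb, without overlap between groups.

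Junb made up 42.8%, 47.6% and 48.4% of the JUN sum in control libraries and 57.3%, 55.2% and 55.0% in LPS libraries, also without overlap. The mean share of Jund went from 37.4% to 31.7% and that of Jun from 16.3% to 12.5%. The ratio of Junb to Jund was 1.03 to 1.36 in control and 1.70 to 1.87 in LPS libraries. Shares depend on length in both families. Without division by length, the mean share of Jun was 23.6% in control and 18.0% in LPS libraries, that of Jund 28.3% and 23.9% and that of Junb 48.2% and 58.1%. In the FOS family, Fosl2 (45.2%) and Fosl1 (44.6%) were level in control libraries, and in LPS libraries Fosl1 had 53.0% and Fosl2 39.0%. Gene length here is that of all exons of a gene in the annotation, and transcripts with another end would give other shares. These shares are descriptions without a test.

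**Figure D2:**
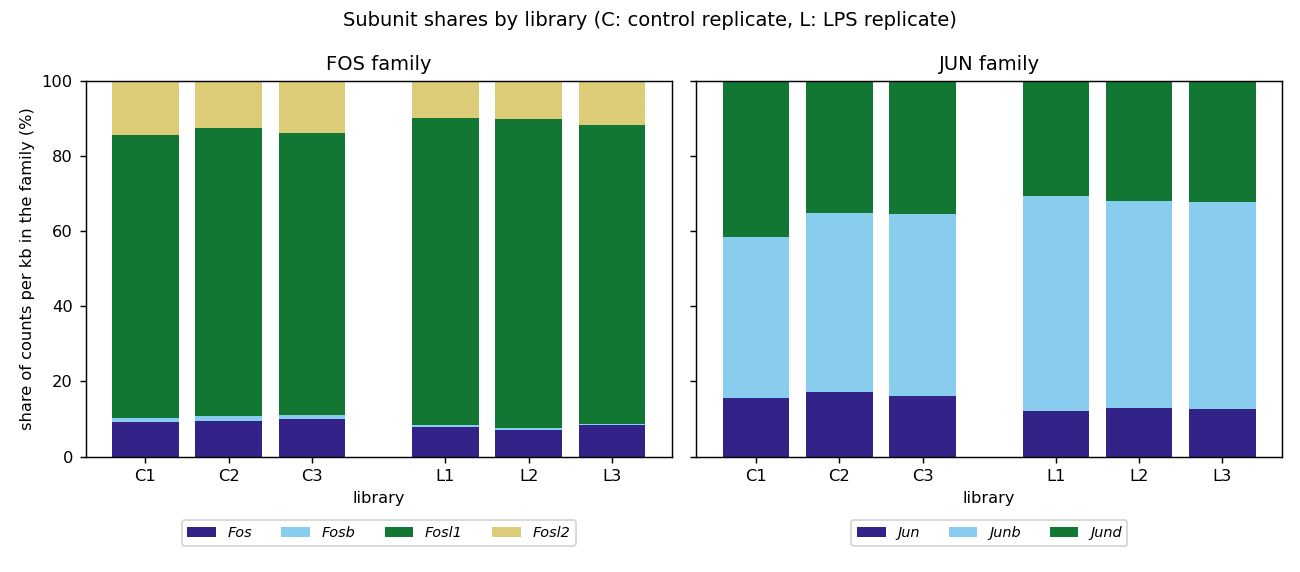
Share of each gene in the summed counts per kb of its family (percent, stacked to 100), for each library. C marks control and L LPS replicates. Fosl1 takes 75.1% to 76.9% of the FOS sum in control and 79.7% to 82.4% in LPS libraries, and Junb 42.8% to 48.4% and 55.0% to 57.3% of the JUN sum.

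Atf3 encodes a stress-induced ATF protein that is known to restrain Toll-like receptor responses in macrophages. Its control libraries were nearly alike, at 78.9, 80.1 and 79.0 CPM, and LPS libraries held 151.5, 148.8 and 141.6 CPM. It was thus among the most abundant members already without LPS. The log2 fold change was 0.89 (SE 0.05, 95% confidence interval 0.79 to 0.99, edgeR adjusted p = 8.40e-10), or 1.86-fold, from 79.3 ± 0.672 to 147 ± 5.13 CPM. Atf3 (ENSMUSG00000026628) lies at chr1:191170296-191218039 on the minus strand, with 2 principal transcripts in GENCODE M21.

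Maff encodes a small MAF protein, which has a bZIP domain and no activation domain and pairs with CNC and FOS proteins. It held 174, 126 and 137 counts in control and 179, 209 and 225 in LPS libraries. Control replicate 1 came close to LPS replicate 1 and was the highest control, as for Jund. The log2 fold change was 0.62 (SE 0.14, 95% confidence interval 0.31 to 0.93, edgeR adjusted p = 0.00381), from 8.22 ± 1.68 to 12.6 ± 1.18 CPM. It was 0.31 without control replicates 2 and 3 (edgeR adjusted p = 0.226) and 0.46 without control replicate 2 and LPS replicate 3 (edgeR adjusted p = 0.0619), neither past the test. Maff (ENSMUSG00000042622) lies at chr15:79346621-79359076 on the plus strand.

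Batf encodes a JUN partner of lymphocytes and dendritic cells that acts with IRF4 and IRF8. It held 0, 2 and 0 counts in control and 1, 1 and 0 in LPS libraries, at or under the limit of 3 counts that a count of 0 allows (0.161 to 0.19 CPM per library, counting error only). A difference was not detectable at this depth, and no fold is given. Batf (ENSMUSG00000034266) lies at chr12:85686669-85709087, on the same strand as Fos and its neighbour Jdp2, with 121753 bases between Fos and Jdp2 and 46790 between Jdp2 and Batf. Of the partners of BATF, Irf8 fell from 74.9 ± 3.61 to 56.4 ± 3.30 CPM (log2 fold change -0.41, SE 0.06, edgeR adjusted p = 6.63e-05), and Irf4 had -0.42 (edgeR adjusted p = 0.274).

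**Figure D3:**
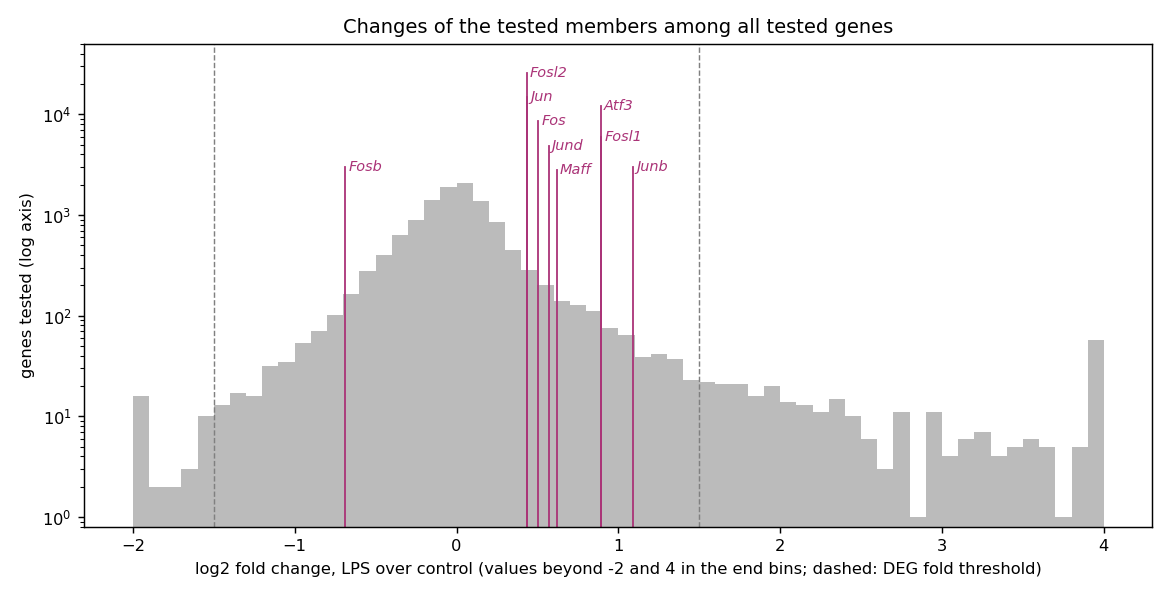
Number of tested genes (log axis) by log2 fold change of LPS over control, with values beyond -2 and 4 placed in the end bins. Vertical lines stand for the 9 tested members, of which Junb lies farthest right at 1.09 and Fosb farthest left at -0.69, all inside the dashed lines of the DEG threshold.

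The other bZIP families were described by lists. Among 17 other ATF and CREB genes, all 17 tested, 4 were higher, 5 lower and 8 did not pass the test. Only 3 were lower with DESeq2, or without control replicate 3, LPS replicate 2 or LPS replicate 3. With library totals alone, 2 were higher and 6 lower. The median log2 fold change of the list was 0.02, against 0.00 over all tested genes. No gene of this list was a DEG by edgeR, DESeq2 or the unadjusted p. Creb5, which encodes a relative of ATF2 that can pair with c-JUN, stood out with 235, 303 and 278 counts in control and 622, 664 and 690 in LPS libraries. Its LPS libraries were far above its controls. Its log2 fold change was 1.41 (SE 0.09, edgeR adjusted p = 8.16e-09), larger than that of any member. Atf1 rose by 0.29 (edgeR adjusted p = 9.93e-05) and Atf6b, an unfolded protein response factor, by 0.16 (edgeR adjusted p = 0.0162) on the log2 scale. The call of Atf6b was lost without control replicate 1 (0.12, edgeR adjusted p = 0.074), LPS replicate 3 (0.14, 0.0672) or control replicate 2 and LPS replicate 3 (0.15, 0.0848), and with library totals alone (0.06, 0.35), which also took Atf1 to 0.19 (0.00257). Creb3l1 (-0.49), Crebzf (-0.36) and Creb1, the prototype CREB (-0.34), fell, with edgeR adjusted p-values of 0.00559, 0.00213 and 0.0039. Without control replicates 2 and 3, Creb1 was at -0.26 and no longer called (edgeR adjusted p = 0.131).

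Of 3 other BATF and JDP2 genes, 2 were tested and both were higher. Batf2, an interferon-responsive relative of Batf, held 10, 6 and 15 counts in control and 56, 68 and 49 in LPS libraries, clearly apart. It was a DEG, with a log2 fold change of 2.60 (SE 0.32, edgeR adjusted p = 1.44e-05). Jdp2, a repressor that pairs with JUN proteins, went from 211, 151 and 185 to 253, 272 and 254 counts, and its control replicate 1 was again the highest control. Its log2 fold change was 0.64 (SE 0.13, edgeR adjusted p = 0.00104), and 0.38 without control replicates 2 and 3 (edgeR adjusted p = 0.0821). Batf3, chosen for mention after its values were seen, did not pass the filter, with 8 to 16 counts in control and 3 to 11 in LPS libraries, which overlap.

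Of 12 other MAF, CNC and BACH genes, 7 were tested, of which 5 were higher, 1 lower and 1 not past the test, with a median log2 fold change of 0.27. A further 3 were at or under 3 counts in every library. Maf, a large MAF protein gene of macrophages, was a DEG at low counts, with 2, 5 and 0 in control and 30, 15 and 24 in LPS libraries (log2 fold change 3.37, SE 0.62, edgeR adjusted p = 5.80e-04). Mafk, a small MAF gene like Maff, rose from 55.8 ± 2.82 to 98.9 ± 5.05 CPM (0.82, SE 0.06, edgeR adjusted p = 2.19e-08). Nfe2l1, a CNC partner of small MAF proteins, rose by 0.38 on the log2 scale (edgeR adjusted p = 2.15e-06).

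**Figure D4:**
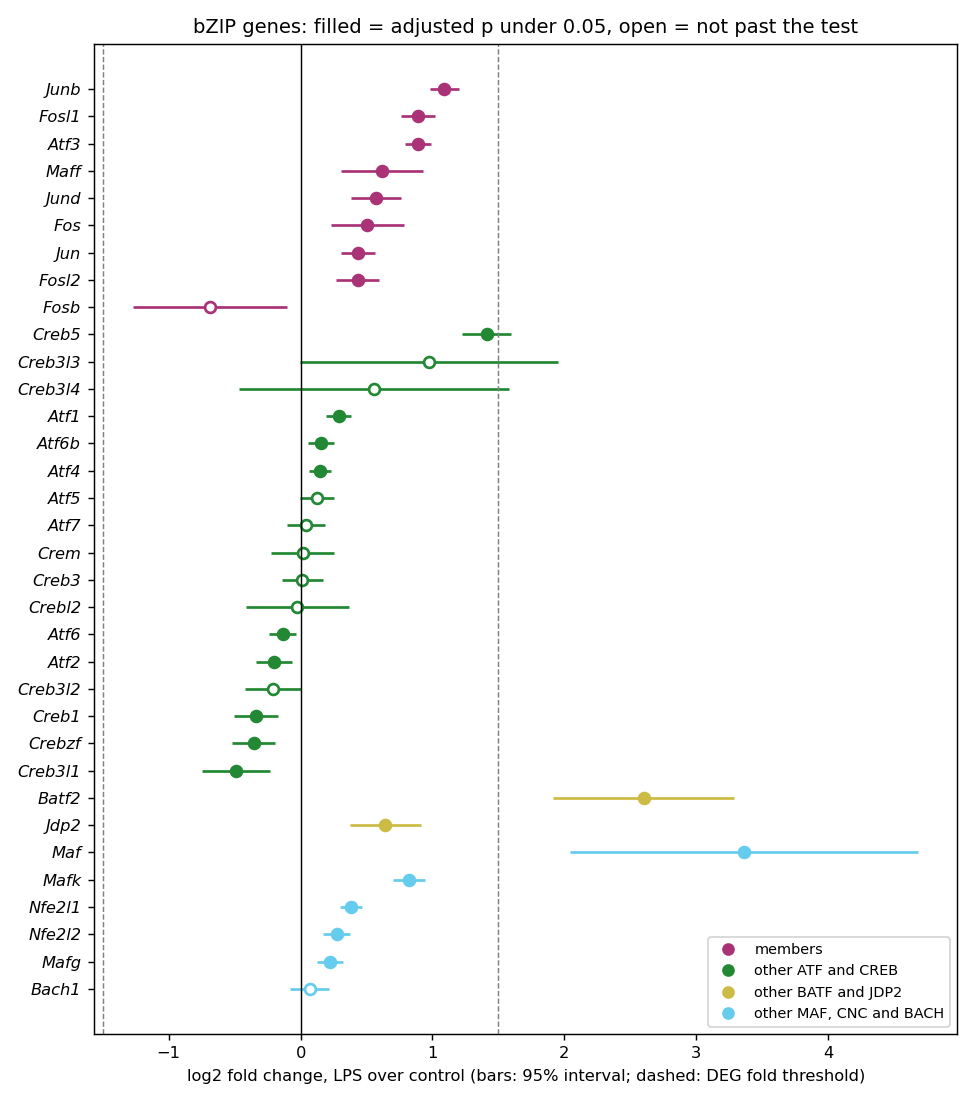
Log2 fold change of LPS over control with its 95% confidence interval for the reported genes of 4 bZIP lists that were tested, in the order of the legend. Filled points passed the test, open points did not, and dashed lines mark the DEG threshold. Creb5 (1.41), Batf2 (2.60) and Maf (3.37) lie beyond the largest change of a member, 1.09 for Junb.

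Upstream of AP-1 stand the MAP kinases and their kinases. Of 19 such genes, 18 were tested, with 5 higher, 4 lower and 9 not past the test, and a median log2 fold change of 0.05. With library totals alone, 5 were higher and 7 lower. Without control replicate 2 and LPS replicate 3, 5 were higher and 2 lower. Map3k8, which encodes TPL2, the kinase that links LPS to ERK in macrophages, held 64, 59 and 78 counts in control and 235, 218 and 200 in LPS libraries and was a DEG (1.84, SE 0.14, edgeR adjusted p = 9.87e-08). Map2k1, which encodes MEK1, the next kinase of that path, rose from 133.9 ± 3.31 to 208.4 ± 6.55 CPM (0.64, SE 0.04, edgeR adjusted p = 3.32e-08). Map2k4, an activator of JNK, rose by 0.43 (edgeR adjusted p = 6.84e-06). Map3k5 (-0.63), Map3k1 (-0.46) and Mapk14, which encodes p38α (-0.17), fell, with edgeR adjusted p-values of 0.00726, 1.18e-04 and 0.00535. Mapk14 was not called without control replicates 2 and 3 (-0.16, edgeR adjusted p = 0.0938) or without control replicate 2 and LPS replicate 3 (-0.16, 0.0518), and with library totals alone it was at -0.27 (1.32e-04). The JNK1 gene Mapk8 (-0.17, edgeR adjusted p = 0.0722), named after its values were seen, did not pass the test. Activity of these kinases was not measured.

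Fos and Jun promoters are read by SRF with its TCF partners and by MEF2. Of 7 genes of these factors none was higher and 3 were lower by edgeR (DESeq2 gave 0 and 3, and the unadjusted p 1 and 3). Mef2c, a microglial factor, fell from 175.9 ± 9.81 to 94.7 ± 1.69 CPM, with 2835, 3263 and 3294 counts in control and 1464, 1567 and 1574 in LPS libraries (-0.89, SE 0.05, edgeR adjusted p = 2.31e-09). Mef2a fell by 0.64 (edgeR adjusted p = 1.81e-08) and Elk3 by 0.18 (edgeR adjusted p = 0.00638) on the log2 scale. Elk3 was not called without control replicates 2 and 3 (-0.13, edgeR adjusted p = 0.201) or without control replicate 2 and LPS replicate 3 (-0.15, 0.076), and with library totals alone it was at -0.28 (2.04e-04). Of 4 genes for the turnover of JUN and FOS proteins (Fbxw7, Cop1, Itch and Det1), none was called by edgeR or DESeq2, and by the unadjusted p 1 was above and 1 below control.

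Downstream, 17 textbook AP-1 targets were followed, which the study did not define and whose promoters are also known to respond to other factors. Of 14 tested, 9 were higher, 3 lower and 2 not past the test, with 5 DEG and a median log2 fold change of 1.05. Il1b, the cytokine gene of IL-1β, held 3, 5 and 0 counts in control and 155, 172 and 122 in LPS libraries (5.88, SE 0.38, edgeR adjusted p = 1.16e-08). Tnf, the gene of tumour necrosis factor, rose from 15.8 ± 1.51 to 232.7 ± 4.37 CPM (3.88, SE 0.06, edgeR adjusted p = 1.56e-15). Mmp13, a collagenase gene with a well-known AP-1 site, rose from 12, 10 and 3 to 119, 110 and 103 counts (3.84, SE 0.31, edgeR adjusted p = 1.44e-07). The other way, Spp1, the osteopontin gene and the most abundant of the list, fell from 9413 ± 72.6 to 7142 ± 326.2 CPM (-0.40, SE 0.03, edgeR adjusted p = 1.65e-08). Plau, the urokinase gene, had -0.24 (edgeR adjusted p = 1.11e-04) and Ccnd1, the cyclin D1 gene, -0.16 (edgeR adjusted p = 0.0138). Ccnd1 was not called without control replicate 3 (edgeR adjusted p = 0.058), LPS replicate 3 (0.0748), control replicates 2 and 3 (0.184) or control replicate 2 and LPS replicate 3 (0.123), at -0.16 to -0.12, and with library totals alone it was at -0.26 (3.94e-04). The list thus moved in both directions, with changes that ran from -0.40 to 5.88, a wider range than that of the members.

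Of 17 other immediate-early genes, 15 were tested, with 7 higher, 2 lower, 6 not past the test and 3 DEG, and a median log2 fold change of 0.31. Myc rose from 51, 76 and 55 counts in control to 440, 445 and 398 in LPS libraries (2.95, SE 0.14, edgeR adjusted p = 2.96e-10). Ier3, a survival gene, rose from 34.6 ± 3.04 to 185.4 ± 4.07 CPM (2.42, SE 0.06, edgeR adjusted p = 1.61e-13). Dusp1, whose product removes phosphate from p38 and JNK, rose from 11.1 ± 1.27 to 38.8 ± 1.83 CPM (1.81, SE 0.09, edgeR adjusted p = 1.01e-09). Nr4a2 (-0.66, edgeR adjusted p = 6.59e-04) and Klf2 (-0.52, edgeR adjusted p = 6.42e-05) fell. Egr1, another early SRF target, named after its values were seen, held 7 to 18 counts in control and 10 to 17 in LPS libraries and did not pass the test (0.25, SE 0.45, edgeR adjusted p = 0.716). In this single time of 6 h, the immediate-early list thus held DEG, genes that fell and genes near their control level, and the changes of the 8 called members lay between 0.43 and 1.09.

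**Figure D5:**
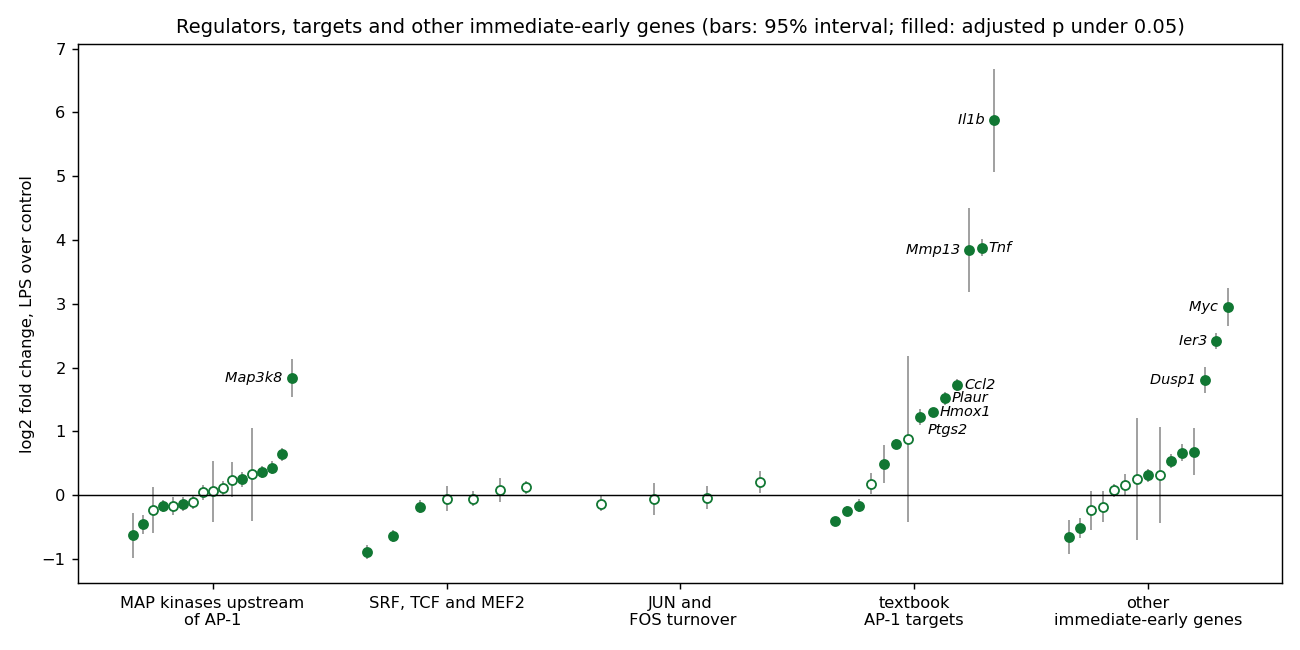
Log2 fold change of LPS over control with its 95% confidence interval for the reported genes of 5 lists that were tested, sorted within a list. Filled points passed the test and open points did not. The largest changes are those of Il1b (5.88), Tnf (3.88), Mmp13 (3.84) and Myc (2.95), and no gene of the turnover list passed the test.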

How the data were processed

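N9 microglia were sequenced in 3 control and 3 LPS libraries, grouped by their labels. The authors deposited whole-number read counts per gene, without normalization, made with featureCounts version 1.5.0-p3 on mm10 according to the submitters' processing notes. The aligner, the use of strand and the annotation are not given in the sources used here. The deposited table's gene length served for CPM per kb. Left unused were 18 further columns of per-sample values, 2 of group means, and the authors' own fold changes and p-values.

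edgeR version 4.0.16 under R 4.3.3 was run on all counts with TMM, filterByExpr by group and a prior count of 0.125, with no replicate term. The standard error is the absolute log2 fold change over the square root of F, and 95% confidence intervals use edgeR's total degrees of freedom. Scripts were tested on simulated data. For 3 against 3 samples the smallest two-sided p of an exact permutation test is 0.1. Total counts are given in the report, and counting limits cover counting error only. Alternatives were DESeq2 1.42.0, RLE factors, no filter, robust dispersion, a replicate block and each library left out. Library totals alone and the pairs of libraries left out were added after the data were seen. Members and lists were chosen with earlier results of these data known. Named genes were all members and, from each list, up to 3 called genes with the largest change in each direction. Some list genes are counted but not reported by name here. Figures used matplotlib 3.10.9 under Python 3.11.15.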

Additional observations from a re-analysis of the deposited data

How the results depend on the processing

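The 9 tested members gave 126 values over 14 alternatives each: 122 kept direction and side of the threshold, 3 lost the call, 1 gained it and 0 reversed. The losses were Fos (0.47) without control replicate 2 and LPS replicate 3, and Maff in both settings that leave out a pair of libraries (0.31 and 0.46). With library totals alone Fosb passed, so that 1 member was called lower. Under that scaling 1520 genes in all were higher and 3342 lower, 2 ATF and CREB genes were higher, 7 MAP kinase genes and 1 turnover gene lower. DESeq2 called 3 ATF and CREB genes lower. Without control replicates 2 and 3, with control replicate 1 assumed to vary like the LPS libraries, 2 ATF and CREB and 2 MAP kinase genes and 1151 genes in all were lower, 1 of BATF and JDP2 and 1 of SRF, TCF and MEF2 higher. Without control replicate 2 and LPS replicate 3, 3 ATF and CREB and 2 MAP kinase genes were lower, where leaving out single libraries gave 3 to 4 of the latter. Robust dispersion called 1 gene of SRF, TCF and MEF2 higher. Leaving out each library in turn gave 3 to 5 ATF and CREB genes lower (3 without control replicate 3, LPS replicate 2 or LPS replicate 3) and 0 to 1 turnover genes lower (1 without control replicate 1 or LPS replicate 3). The cause of these moves was not tested. Without the filter on low counts, edgeR's prior degrees of freedom were infinite, against 10.1.

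Deviations of samples with the same replicate number had correlations of 0.136, 0.0588 and -0.00415, against -0.144 to 0.0912 for samples with different numbers. Each deviation is from a mean of only 3 libraries, so that these values cannot show whether the numbers pair the samples. The replicate block called 8 members and 52 of 86 list genes, against 8 and 51 without it, and 1 gene of SRF, TCF and MEF2 higher. The block moved the count of higher genes in all to 2454. Depth limits Batf and the low genes.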
